A study of Mus musculus with 12 samples.

Results

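The glycolysis and HIF-1 target genes followed here are 36 mouse genes: the oxygen-regulated subunit of hypoxia-inducible factor 1 (Hif1a), the prolyl hydroxylases Egln1 and Egln3, the glucose transporters, enzymes, and lactate transporters of glycolysis, and 9 other genes known as HIF-1 targets. They were chosen by symbol from knowledge of the pathway, with earlier results of these data known, and 35 of the 36 were listed and tested in both tables of the series, out of 11077 genes listed for Th17 versus Th0 and 11056 for iTreg versus Th0. The remaining member, the enolase Eno1, was not analysed here.

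The values come from RNA sequencing of 12 libraries made from 4 independent cultures each of Th0, Th17, and iTreg cells. All cultures began with naive CD4+CD62L+ T cells from the spleens of C57BL/6 mice aged 8 to 10 weeks, and all were activated with 1 μg/ml of plate-bound anti-CD3 and 1 μg/ml of anti-CD28 and collected on day 3. Th0 cells received no polarizing cytokine, Th17 cells received 30 ng/ml IL6 and 5 ng/ml TGFβ1 with 10 μg/ml each of neutralizing anti-IL4 and anti-IFNγ, and iTreg cells received 10 ng/ml IL2 and 10 ng/ml TGFβ1 by the sample labels, while the methods of the study state a higher TGFβ1 concentration. The groups therefore differ in several added reagents at once, and these are in vitro cultures in which a difference in RNA per cell and a difference in the mixture of cells cannot be told apart.

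HIF-1 is a pair of DNA-binding proteins whose alpha subunit is made continuously and destroyed when prolyl hydroxylases of the Egln family, using oxygen, mark it for the VHL ubiquitin ligase. When it escapes this mark it binds hypoxia response elements, with the core letters ACGTG or GCGTG, near genes for glucose uptake, nearly every step of glycolysis, lactate export, mitophagy, and angiogenesis. Activated T cells raise glycolysis strongly also at normal oxygen, through T cell receptor, MYC, and mTOR signalling, and HIF-1 has been studied as a factor that favours Th17 over regulatory T cells.

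Promoter windows of the members, from 250 bases before to 50 bases after an annotated start, were read from RefSeq on GRCm38.p6, the build called mm10, which held entries for 34 of the 36 members in 50 windows, but none for Slc2a3 and Bnip3l. The letters ACGTG, on either strand, stood in 29 of the 50 member windows (58%), against 19.6% of all 32851 mouse windows of the same length and 26.1% of the 10889 windows of genes listed in the tables. GCGTG stood in 54% of member windows, against 32.4% and 51.7%, and the palindrome CACGTG, which contains ACGTG on both strands and is also the site of the MYC family, stood in 12%, against 7.15% and 10.3%. A match of letters is a description of the window and not evidence that a factor was bound there. Below are windows of 3 members that changed in these data and carry ACGTG, of Eno3, which changed the most downward in Th17 cells and carries only GCGTG, and of Ldha and Pgk1, classical HIF-1 targets that were not called in either comparison without pairing, of which Pgk1 was called lower in both when libraries were paired by their column headings. They are written 5′ to 3′ along the gene's strand, with ACGTG and GCGTG matches of either strand in capitals.
Egln3, chr12:54203825-54204124, minus strand: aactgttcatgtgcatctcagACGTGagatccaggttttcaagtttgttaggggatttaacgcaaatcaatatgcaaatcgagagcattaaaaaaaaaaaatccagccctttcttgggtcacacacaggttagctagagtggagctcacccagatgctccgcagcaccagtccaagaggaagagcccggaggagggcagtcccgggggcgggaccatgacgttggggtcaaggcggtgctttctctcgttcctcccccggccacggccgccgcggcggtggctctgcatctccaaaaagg
Mxi1, chr19:53329163-53329462, plus strand: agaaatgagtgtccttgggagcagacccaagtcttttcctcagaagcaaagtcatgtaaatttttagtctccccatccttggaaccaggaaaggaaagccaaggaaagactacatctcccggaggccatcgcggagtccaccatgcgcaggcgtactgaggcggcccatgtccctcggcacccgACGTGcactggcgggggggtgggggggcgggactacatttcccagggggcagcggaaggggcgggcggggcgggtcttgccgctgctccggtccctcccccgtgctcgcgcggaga
Hif1a, chr12:73907617-73907916, plus strand: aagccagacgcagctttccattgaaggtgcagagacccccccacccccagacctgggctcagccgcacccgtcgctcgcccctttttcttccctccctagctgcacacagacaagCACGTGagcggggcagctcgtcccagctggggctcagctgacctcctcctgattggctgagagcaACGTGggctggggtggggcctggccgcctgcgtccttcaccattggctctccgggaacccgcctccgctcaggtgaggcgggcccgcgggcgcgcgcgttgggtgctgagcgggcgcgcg
Eno3, chr11:70656926-70657225, plus strand: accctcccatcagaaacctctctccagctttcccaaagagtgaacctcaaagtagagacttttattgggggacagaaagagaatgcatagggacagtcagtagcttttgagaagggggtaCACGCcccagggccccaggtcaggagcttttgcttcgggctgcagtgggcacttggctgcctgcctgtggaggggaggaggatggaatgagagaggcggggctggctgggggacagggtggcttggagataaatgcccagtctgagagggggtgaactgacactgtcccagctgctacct
Ldha, chr7:46845554-46845853, plus strand: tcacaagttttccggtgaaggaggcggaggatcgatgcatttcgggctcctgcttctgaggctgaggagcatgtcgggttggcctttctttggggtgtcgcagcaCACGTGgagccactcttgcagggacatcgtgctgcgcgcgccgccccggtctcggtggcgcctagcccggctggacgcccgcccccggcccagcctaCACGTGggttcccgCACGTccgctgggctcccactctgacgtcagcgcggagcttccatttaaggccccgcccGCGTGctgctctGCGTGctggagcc
Pgk1, chrX:106186850-106187149, plus strand: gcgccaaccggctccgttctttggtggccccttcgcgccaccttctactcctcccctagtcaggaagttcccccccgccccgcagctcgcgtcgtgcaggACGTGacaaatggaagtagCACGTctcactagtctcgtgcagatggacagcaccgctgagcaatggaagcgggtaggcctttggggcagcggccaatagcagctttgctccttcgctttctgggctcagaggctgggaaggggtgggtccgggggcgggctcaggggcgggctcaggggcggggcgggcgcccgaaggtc
The Ldha window held 5 matches of ACGTG and 2 of GCGTG, the Hif1a window 3 matches of ACGTG, the Pgk1 window 2, and the windows of Egln3, Mxi1, and Eno3 1 match each. A CACGTG counts here as 2 overlapping matches of ACGTG, 1 on each strand, and the Ldha window held 2 CACGTG and the Hif1a window 1. For 2 of these genes windows of other annotated starts were read as well. A second Ldha window held no ACGTG and 2 matches of GCGTG, and of 3 Mxi1 windows 2 held 1 match of ACGTG and 1 held neither motif.

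All levels are FPKM, a fragment count corrected for transcript length and for library size. Differences are log2 fold changes of FPKM + 1 with their standard error (SE), tested with limma over every gene of a table that exceeded 1 FPKM in 4 or more of its 8 libraries, and a gene was called when its Benjamini-Hochberg adjusted p was below 0.05. Both comparisons use the same 4 Th0 libraries, but the authors scaled each table separately, so that a Th0 library differs between tables by a constant factor of 0.988 to 0.991, and Th17 and iTreg levels were not tested against each other. The Th0 levels quoted are those of the Th17 table unless stated otherwise. Libraries are named by their column headings, which begin with M22, M29, M42, or M43, and values of the 4 libraries of a group are always given in that order. Each beginning occurs once in each group, as does each experiment number of the sample titles, and the methods of the study describe a pair-wise design for the RNA-seq tests, but nothing in the labels or methods links a beginning to an experiment number. The groups were compared without pairing. A limma fit with the beginning as a term, which pairs the libraries and was chosen after the values had been seen, is nearer to the design the study describes and is given beside the results it changes.

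The polarized cultures carried the markers of their labels. The 4 Th17 marker genes Il17a, Il17f, Il23r, and Ahr were each called higher in Th17 cells, with a summed level of 359.8 to 938 FPKM against 0.890 to 2.31 FPKM in Th0 cells, and all 4 iTreg marker genes (Foxp3, Ikzf4, Itgae, and Il2ra) were called higher in iTreg cells, at 423 to 689.5 FPKM against 91.3 to 183 FPKM. Il17f and Ahr were also called higher in iTreg cells, and 2 of the 4 iTreg marker genes were called higher in Th17 cells. The iTreg markers summed to 238 to 498 FPKM in Th17 libraries and 92.1 to 185 FPKM in Th0 libraries. With the beginning as a term, Itgae, Il2ra, and Ikzf4 were called higher in Th17 cells, so that their rise is not particular to iTreg cells. Foxp3 ranged from 0.499 to 42.5 FPKM between Th17 libraries. The 8 CD4 T cell markers were all detected. Cd4 itself was called lower in Th17 cells, from 208 ± 89.6 to 68.1 ± 24.5 FPKM (-1.54 ± 0.43, limma adjusted p = 0.038), and Cd2 higher in iTreg cells (1.10 ± 0.23, limma adjusted p = 0.012). With the beginning as a term, 3 of the 8 were called lower in Th17 cells (Cd4, Cd3d, and Cd3g), and in iTreg cells 5 were called lower (Cd3d, Cd3e, Cd3g, Cd5, and Cd28) and 2 higher. Markers of other cells were low or not listed: 1 of 2 CD8 genes at most 6.60 FPKM, 1 of 5 B cell genes at most 3.84 FPKM, 2 of 6 myeloid genes with a sum of 3.34 to 5.03 FPKM in Th0 and 5.58 to 16.5 FPKM in Th17 cells, with Cd68 the only one tested and called higher in Th17 cells only with the beginning as a term, and none of the 3 NK cell or 5 erythroid genes. Their part in the results was not tested.

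In Th17 cells, 4 of the 35 members were called higher than in Th0 cells and 1 was called lower. The 4 were Hif1a, the prolyl hydroxylase Egln3, the angiogenic growth factor Vegfa, and the MYC antagonist Mxi1, and the 1 was the enolase Eno3. This is 11.4% of the members higher, where 10.6% of all 10269 genes tested were called higher, and 2.86% lower, where 8.69% of all genes were called lower. The same 4 members had no overlap between their Th17 and Th0 libraries in the upward direction (13.2% of all genes), and Eno3 and the phosphofructokinase Pfkm had none in the downward direction (10.6% of all genes). The median log2 fold change of the members was -0.12, beside -0.00071 over all genes, with 11 members above 0 and 24 below.

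In iTreg cells, 2 members were called higher, Egln3 and Mxi1, and 8 were called lower: Hif1a, Egln1, the glucose transporter Slc2a3, the isoforms Pfkm, Aldoc, and Ldhb of glycolytic enzymes, the kinase Pdk1, and the mitophagy receptor Bnip3l. The share called higher was 5.71%, beside 8.36% of all 10208 genes tested, and the share called lower was 22.9%, beside 8.21% of all genes. Groups did not overlap for the same 2 members upward (11.7% of all genes) and for 9 members downward (11% of all genes), the 8 called and the glucose phosphate isomerase Gpi1. The median log2 fold change was -0.39, beside 0.011 over all genes, with 10 members above 0 and 25 below. All 8 members of upper glycolysis had a fold change below 0 in iTreg cells, beside 4938 of all 10208 genes tested. Their median was -0.41, and 2 of the 8 were called. With the heading beginning as a term, Gpi1, Pfkl, Pfkm, Pfkfb3, Aldoc, and Tpi1 were called lower and Pfkp and Aldoa were not, where 20% of all genes were called lower.

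**Figure D1:**
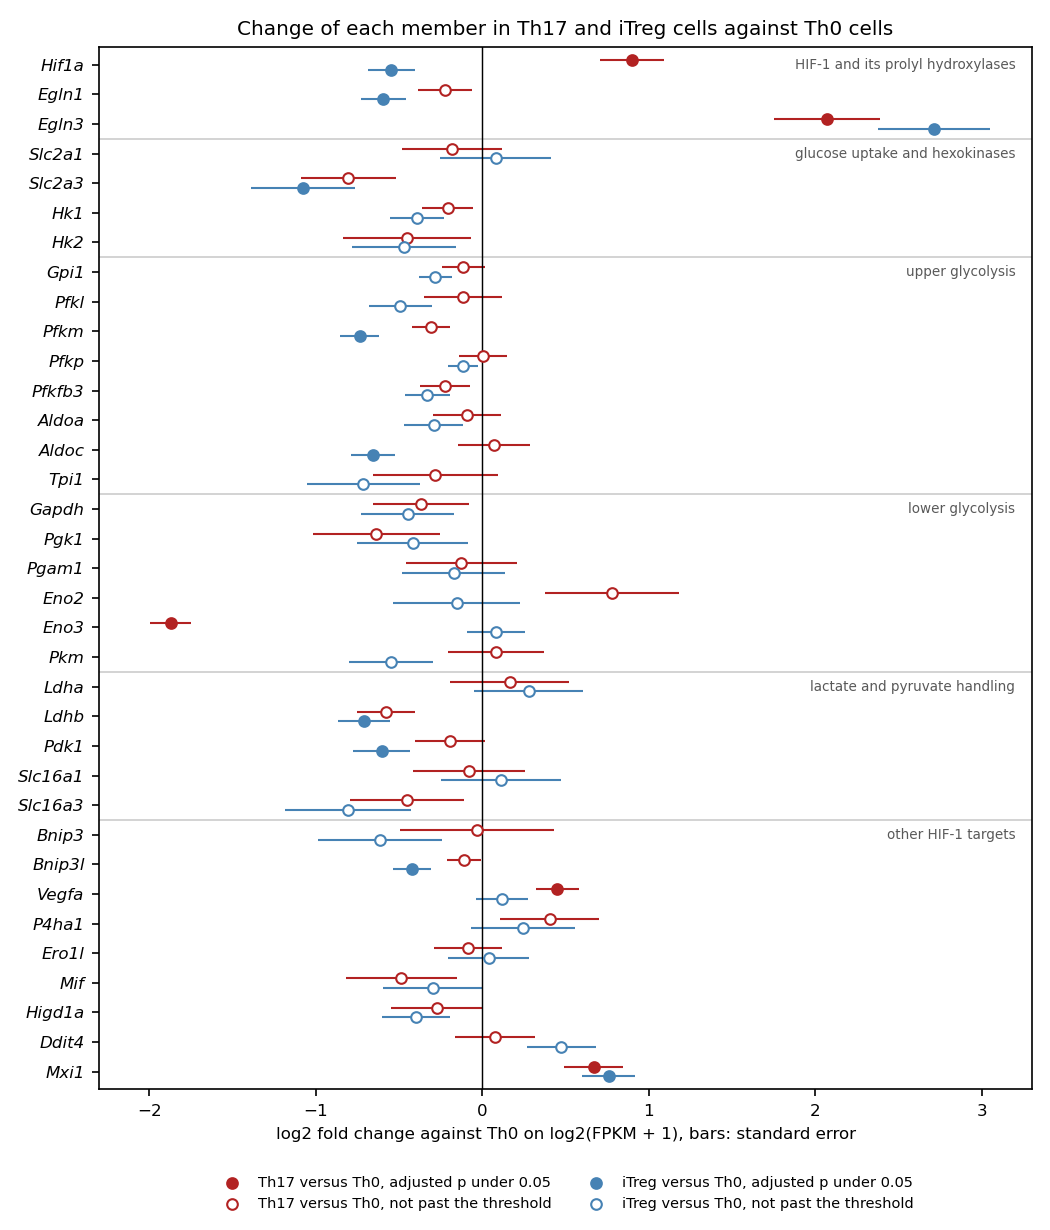
The log2 fold change against Th0 cells of the 35 members tested, in rows ordered by role, for Th17 (red) and iTreg cells (blue), with SE bars and filled points where the adjusted p was below 0.05. Most points lie left of 0, with Egln3 at 2.07 and 2.71 farthest right and Eno3 in Th17 cells at -1.87 farthest left.

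The count of called members depended on how the libraries were arranged. Within the 4 heading beginnings, 6 members were higher in Th17 than in Th0 cells every time and 8 were lower every time (28.4% and 26.9% of all genes), and 4 members were higher in iTreg cells every time and 17 lower every time (29.1% and 27.4% of all genes). With the beginning as a term of the limma fit, the called members came to 6 higher and 5 lower in Th17 cells, where 19.2% and 18.6% of all genes were called, and to 3 higher and 18 lower in iTreg cells, where 20.9% and 20% of all genes were called. The 18 lower members in iTreg cells are 51.4% of the members. Fold changes are identical in both fits, and only the spread against which they are read differs. The 10 members added downward in iTreg cells were Hk1, Gpi1, Pfkl, Pfkfb3, Tpi1, Gapdh, Pgk1, Pkm, Slc16a3, and Higd1a.

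Hif1a (chr12:73901375-73947530) was the one member called in opposite directions. It stood at 89.2, 107, 136 and 119 FPKM in Th0 libraries, at 189.5, 236, 267 and 159 FPKM in Th17 libraries, and at 67.6, 76.8, 73.4 and 84.4 FPKM in iTreg libraries. Every Th17 library was above every Th0 library and every iTreg library below, the closest being 159 against 136 FPKM above and 84.4 against 88.1 FPKM below, the latter 2 both from the iTreg table. The log2 fold change was 0.90 ± 0.19 in Th17 cells (n = 4 per group, limma adjusted p = 0.011) and -0.55 ± 0.14 in iTreg cells (limma adjusted p = 0.030). In the iTreg comparison the call was lost when any 1 of M22_4, M29_1, M29_4, M42_1, M42_4, or M43_1 was left out, with an adjusted p of up to 0.086, whereas the Th17 call was kept without any single library. With the beginning as a term, Hif1a had a limma adjusted p of 0.0029 in Th17 cells and 0.0047 in iTreg cells. Other transcripts overlap 8.11% of its exonic bases, and counting did not use strand.

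Egln3 (chr12:54178981-54203860), the prolyl hydroxylase most readily induced by HIF in many cell types, had the largest rise of the members in both comparisons. It stood at 13.5, 6.47, 20.5 and 19.6 FPKM in Th0 libraries, at 61.9, 47.1, 68.7 and 69.4 FPKM in Th17 libraries, and at 89.3, 69.8, 127 and 102 FPKM in iTreg libraries. The lowest polarized library, at 47.1 FPKM, was far above the highest Th0 library, at 20.5 FPKM. Its mean was 4.12 times that of Th0 in Th17 cells (log2 fold change 2.07 ± 0.32, limma adjusted p = 0.0023) and 6.54 times in iTreg cells (2.71 ± 0.34, limma adjusted p = 0.00097). Both calls were kept without any single library. Egln3 RNA was above Th0 in Th17 cells, where Hif1a RNA was above Th0, and also in iTreg cells, where Hif1a RNA was below Th0. The cause of the Egln3 rise was not tested.

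Egln1 (chr8:124908587-124949324), the hydroxylase that sets HIF-1 levels at normal oxygen in most tissues, moved the other way. It stood at 34.5, 33.3, 44.4 and 46.6 FPKM in Th0 libraries of the iTreg table and at 23.3, 25.7, 25.2 and 28.8 FPKM in iTreg libraries, with no overlap, a log2 fold change of -0.59 ± 0.13 (limma adjusted p = 0.018), which rose to 0.057 without M22_4. With the beginning as a term, Egln1 had a limma adjusted p of 0.0024 in iTreg cells. In Th17 libraries it stood at 28.03, 34.3, 42.8 and 31.9 FPKM, across the Th0 range, with a log2 fold change of -0.22 ± 0.16 (limma adjusted p = 0.39). Egln3 therefore exceeded Egln1 in every polarized library and in no Th0 library, levels that can be set side by side because FPKM is per length.

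**Figure D2:**
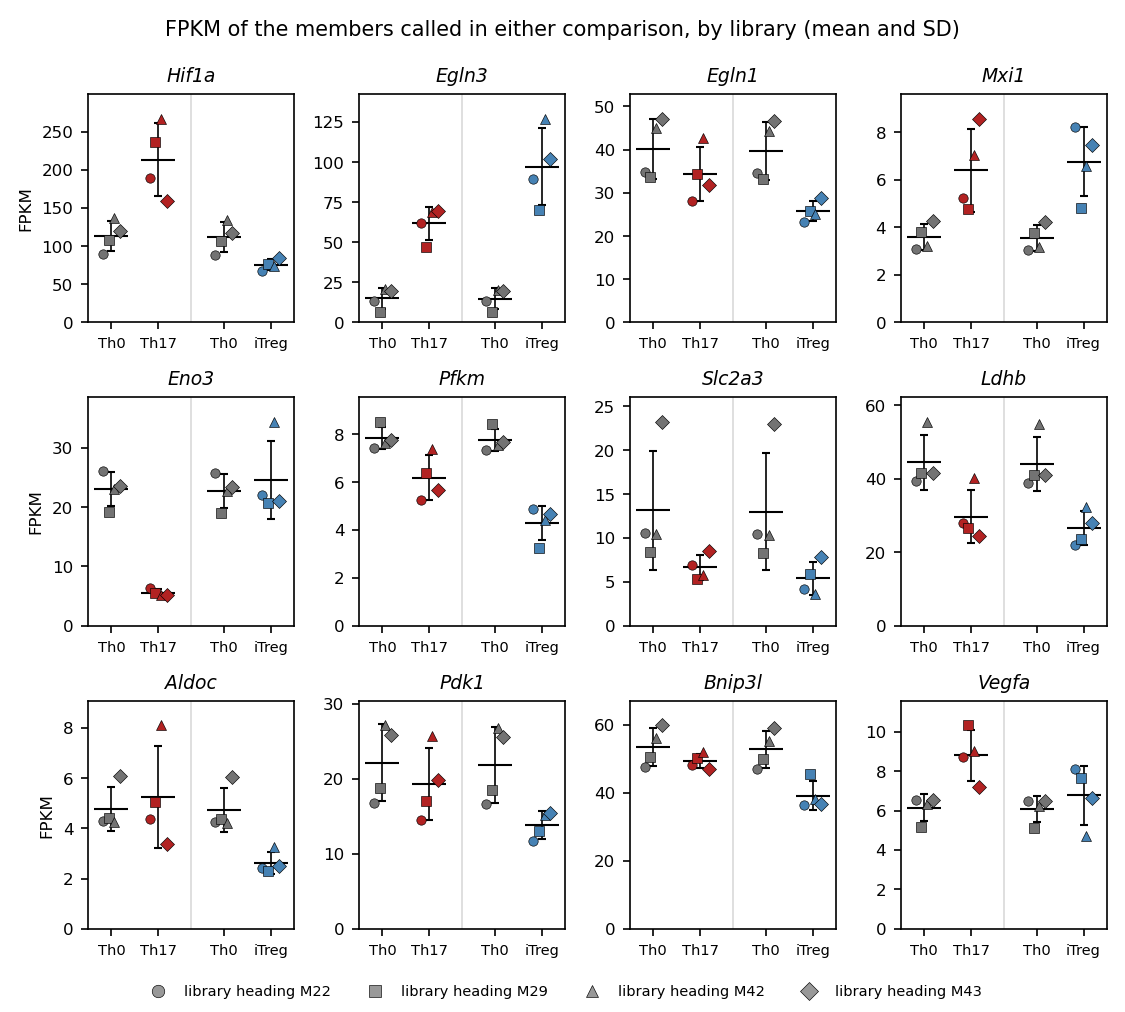
FPKM of the 12 members called in either comparison, 1 point per library with the mean and SD of each group, Th0 (grey) shown once for each table, Th17 in red and iTreg in blue, and the point's shape giving the beginning of the library's heading. Th17 and iTreg libraries lie on opposite sides of Th0 for Hif1a and on the same side for Egln3 and Mxi1, and Eno3 is low in Th17 cells alone, at 5.12 to 6.42 FPKM.

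Glucose enters T cells mainly through Slc2a1 (GLUT1) and the high-affinity Slc2a3 (GLUT3), and hexokinases trap it by phosphorylation. Slc2a3 (chr6:122727809-122801640) was at 10.4, 8.32, 10.3 and 22.96 FPKM in Th0 libraries of the iTreg table and at 4.16, 5.85, 3.64 and 7.87 FPKM in iTreg libraries. The groups did not overlap, the closest libraries being 7.87 and 8.32 FPKM, and Th0 library M43_1 lay well above the other 3. Its log2 fold change was -1.08 ± 0.31 (limma adjusted p = 0.048), a call that was lost without any 1 of M22_1, M22_4, M29_4, M42_1, M42_4, and M43_1 (up to 0.12) and with a pseudocount of 0.1 or a filter at a mean of 5 FPKM. With the heading beginning as a term, Slc2a3 had a limma adjusted p of 0.0024 in iTreg cells. In Th17 libraries, at 6.93, 5.37, 5.73 and 8.53 FPKM, it had a log2 fold change of -0.80 ± 0.28 (limma adjusted p = 0.083), which reached an adjusted p of 0.0066 with the heading beginning as a term.

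Slc2a1 did not move with Slc2a3. It stood at 36.2, 30.5, 24.5 and 60.00 FPKM in Th0, 26.6, 37.9, 21.8 and 44.3 FPKM in Th17, and 39.5, 39.2, 21.7 and 58.1 FPKM in iTreg libraries, with a log2 fold change of -0.18 ± 0.30 (95% interval -0.86 to 0.50, limma adjusted p = 0.72) and 0.08 ± 0.33 (95% interval -0.68 to 0.84, limma adjusted p = 0.91). Both signs turned when single libraries were left out. Libraries whose heading begins with M43 were the highest in each group and those with M42 the lowest.

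Hk1, the hexokinase of most cells, was the more abundant of the hexokinases, at 51.5 ± 9.35 FPKM (SD, n = 4) in Th0, 44.2 ± 5.60 in Th17, and 38.6 ± 6.60 in iTreg cells. It was lower in iTreg than in Th0 cells within all 4 heading beginnings, with a log2 fold change of -0.39 ± 0.16, a limma adjusted p of 0.14 without and 0.0038 with the beginning as a term. Hk2, the inducible hexokinase and a textbook HIF-1 target, was at 8.55, 4.76, 14.2 and 14.9 FPKM in Th0, 3.69, 5.99, 11.5 and 8.22 FPKM in Th17, and 5.17, 6.17, 7.55 and 8.23 FPKM in iTreg libraries. The Th0 libraries alone span more than 3-fold, and neither log2 fold change, -0.45 ± 0.39 and -0.47 ± 0.31, passed the test (limma adjusted p = 0.46 and 0.37).

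In upper glycolysis, phosphofructokinase commits sugar to the pathway and exists as liver (Pfkl), muscle (Pfkm), and platelet (Pfkp) isoforms. Pfkm (chr15:98092589-98132451), the least abundant, was at 7.35, 8.44, 7.56 and 7.66 FPKM in Th0 libraries of the iTreg table, 4.86, 3.25, 4.40 and 4.65 FPKM in iTreg libraries, and 5.26, 6.40, 7.40 and 5.68 FPKM in Th17 libraries. iTreg libraries lay wholly below Th0. Th17 libraries lay wholly below the Th0 libraries of the Th17 table by a narrow margin, the closest being 7.40 and 7.44 FPKM. The log2 fold change was -0.74 ± 0.12 in iTreg cells (limma adjusted p = 0.0037), kept without any single library, and -0.31 ± 0.12 in Th17 cells (limma adjusted p = 0.10, or 0.044 with the heading beginning as a term). Other annotated transcripts overlap 10.7% of its exonic bases.

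The other phosphofructokinases were not called without the heading term. Pfkp, the most abundant isoform, was at 80.7 ± 6.68 FPKM in Th0, 81.7 ± 13.9 in Th17, and 73.3 ± 2.41 in iTreg cells, with log2 fold changes of 0.01 ± 0.14 and -0.12 ± 0.09 that did not pass the test (limma adjusted p = 0.99 and 0.44). Pfkl was at 60.1 ± 14.7 FPKM in Th0 and 41.8 ± 6.36 FPKM in iTreg cells of the iTreg table, a log2 fold change of -0.49 ± 0.19 that was called with the heading beginning as a term (limma adjusted p = 0.014) and not without it (0.12). Pfkfb3, which makes the strongest activator of phosphofructokinase, was at 17.4, 14.9, 22.4 and 21.6 FPKM in Th0 libraries of the iTreg table, 13.5, 14.5, 15.8 and 15.4 FPKM in iTreg, and 15.1, 17.7, 17.96 and 14.1 FPKM in Th17 libraries. In iTreg cells 2 libraries lay below the lowest Th0 library and the other 2 within the lower part of the Th0 range, with a log2 fold change of -0.33 ± 0.14 (limma adjusted p = 0.15, or 0.028 with the beginning as a term), and in Th17 cells the log2 fold change was -0.23 ± 0.15 (0.34).

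Aldolase splits the phosphorylated sugar, and its isoform Aldoa made up almost all of the aldolase RNA, at 591 ± 133 FPKM in Th0 cells. The minor isoform Aldoc (chr11:78322968-78327781) was at 4.26, 4.38, 4.20 and 6.03 FPKM in Th0 libraries of the iTreg table, 2.42, 2.32, 3.26 and 2.49 FPKM in iTreg libraries, and 4.39, 5.06, 8.11 and 3.39 FPKM in Th17 libraries. iTreg libraries lay wholly below Th0, with a log2 fold change of -0.65 ± 0.13 (limma adjusted p = 0.011) that was kept without any single library, whereas Th17 libraries spanned the Th0 range (0.07 ± 0.22, limma adjusted p = 0.86). Aldoa itself had log2 fold changes of -0.09 ± 0.20 and -0.29 ± 0.17 (limma adjusted p = 0.79 and 0.31). Gpi1 was at 221, 206, 253 and 249.6 FPKM in Th0 and 183, 202, 185 and 193 FPKM in iTreg libraries of the same table, not overlapping, with a log2 fold change of -0.28 ± 0.10 (limma adjusted p = 0.091, or 0.039 with the beginning as a term). Tpi1, triose phosphate isomerase, had the largest fold change of the uncalled upper enzymes in iTreg cells, -0.71 ± 0.34, from 422 ± 181 to 244 ± 67.1 FPKM in the iTreg table (limma adjusted p = 0.20, or 0.014 with the beginning as a term).

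In lower glycolysis Eno3 (chr11:70657202-70662513), the muscle enolase, carried the clearest change in Th17 cells. It was at 26.1, 19.2, 22.98 and 23.6 FPKM in Th0 libraries and at 6.42, 5.44, 5.12 and 5.19 FPKM in Th17 libraries, a log2 fold change of -1.87 ± 0.12 (limma adjusted p = 2.45e-05) with a mean 0.241 times that of Th0. The highest Th17 library was at 6.42 FPKM and the lowest Th0 library at 19.2 FPKM, and the call was kept without any single library. In iTreg libraries it was at 22.1, 20.6, 34.4 and 20.97 FPKM, across the Th0 range (0.08 ± 0.17, limma adjusted p = 0.81), with M42_4 far above the others. Eno2, the neuronal enolase, was at 27.7, 12.6, 9.61 and 11.7 FPKM in Th0 and 47.9, 27.6, 20.3 and 14.2 FPKM in Th17 libraries, higher in Th17 cells within all 4 heading beginnings, with a log2 fold change of 0.78 ± 0.40 (limma adjusted p = 0.22, or 0.0072 with the beginning as a term). The main isoform Eno1 was not analysed here. The related gene Eno1b was listed and ranged from 3.05 to 51.6 FPKM within Th0 cells, and 20.4% of the 100-base windows of Eno1 recur in other annotated genes.

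The abundant enzymes of lower glycolysis varied more between libraries than between groups. Gapdh, the most abundant member, was at 1149, 940.4, 1793 and 1857 FPKM in Th0, 770.3, 958, 1644 and 1070.0 FPKM in Th17, and 747, 799, 1309.8 and 1274 FPKM in iTreg libraries. The groups overlapped, with log2 fold changes of -0.37 ± 0.29 in Th17 cells (limma adjusted p = 0.42) and -0.45 ± 0.28 in iTreg cells (limma adjusted p = 0.33, or 0.0059 with the beginning as a term). Pkm, pyruvate kinase, was at 623, 530.4, 946 and 1037 FPKM in Th0, 557, 730.4, 1235 and 809 FPKM in Th17, and 392, 446, 587 and 663 FPKM in iTreg libraries. Its level was lower in iTreg than in Th0 cells within all 4 beginnings (-0.55 ± 0.25, limma adjusted p = 0.18 without and 0.0042 with the term), and higher in 2 and lower in 2 of them in Th17 cells (0.08 ± 0.29, limma adjusted p = 0.88). Pgk1, phosphoglycerate kinase, was lower in Th17 cells within all 4 beginnings (-0.64 ± 0.38, limma adjusted p = 0.29 without and 0.029 with the term) and lower in iTreg cells in 3 of 4 (-0.42 ± 0.33, 0.45 and 0.048). Pgam1, phosphoglycerate mutase, was called in neither fit, at 300.4 ± 113 FPKM in Th0, 272 ± 103 in Th17, and 256 ± 72.1 in iTreg cells. Of the 100-base windows of Pgk1, 51.7% recur in 3 other annotated genes, of those of Pgam1 33.9% recur in 2, and of those of Gapdh 20.9% recur in 86, so that their levels are uncertain.

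Lactate dehydrogenase converts pyruvate to lactate, with Ldha as the isoform of glycolytic cells and Ldhb as that of oxidative tissues. Ldha was at 485, 371, 908 and 888 FPKM in Th0, 463, 587, 1108 and 761 FPKM in Th17, and 559.5, 591, 977 and 931 FPKM in iTreg libraries. It was called in neither comparison, with log2 fold changes of 0.16 ± 0.36 (95% interval -0.64 to 0.97, limma adjusted p = 0.79) and 0.28 ± 0.33 (95% interval -0.47 to 1.02, limma adjusted p = 0.63), although every iTreg library was above the Th0 library of the same heading beginning. Ldhb (chr6:142490249-142507957) was at 39.3, 41.5, 55.5 and 41.4 FPKM in Th0, 27.8, 26.5, 40.1 and 24.4 FPKM in Th17, and 22.1, 23.5, 32.2 and 28.1 FPKM in iTreg libraries. iTreg libraries lay wholly below Th0 (-0.71 ± 0.15, limma adjusted p = 0.015), a call kept without any single library. In Th17 cells only M42_5, at 40.1 FPKM, reached into the Th0 range (-0.58 ± 0.18, limma adjusted p = 0.051, or 0.0030 with the beginning as a term).

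Pdk1 (chr2:71873224-71903858), the kinase that shuts pyruvate dehydrogenase and so keeps pyruvate out of mitochondria, was at 16.6, 18.6, 26.8 and 25.6 FPKM in Th0 libraries of the iTreg table and 11.7, 13.1, 15.2 and 15.5 FPKM in iTreg libraries. The groups did not overlap, the nearest libraries being 15.5 and 16.6 FPKM, and the log2 fold change was -0.60 ± 0.17 (limma adjusted p = 0.043). The call was lost without any 1 of M22_4, M29_4, M42_1, M42_4, M43_1, and M43_4, with an adjusted p of up to 0.12. With the heading beginning as a term, Pdk1 had a limma adjusted p of 0.0015 in iTreg cells. In Th17 libraries, at 14.5, 17.04, 25.7 and 19.8 FPKM, the log2 fold change was -0.19 ± 0.21 (limma adjusted p = 0.57). The lactate exporter Slc16a3 (MCT4) was at 34.6, 21.6, 21.9 and 60.9 FPKM in Th0, 18.8, 18.2, 23.1 and 34.7 FPKM in Th17, and 17.5, 17.4, 10.4 and 29.2 FPKM in iTreg libraries. The groups overlapped, and in iTreg cells the log2 fold change of -0.80 ± 0.38 was called only with the heading beginning as a term (limma adjusted p = 0.19 without and 0.0037 with it). In Th17 cells it was -0.45 ± 0.34 (limma adjusted p = 0.40, or 0.074 with the term). The other lactate transporter, Slc16a1 (MCT1), was at 21.5 ± 7.46 FPKM in Th0, 20.4 ± 7.54 in Th17, and 23.6 ± 9.79 in iTreg cells, and was called in neither fit.

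Among the other HIF-1 targets, Mxi1 (chr19:53310518-53375810), which binds MAX and opposes MYC, rose in both comparisons. It was at 3.09, 3.78, 3.21 and 4.27 FPKM in Th0, 5.23, 4.77, 7.04 and 8.58 FPKM in Th17, and 8.22, 4.81, 6.57 and 7.48 FPKM in iTreg libraries, with no overlap between Th0 and either polarized group. The log2 fold change was 0.67 ± 0.18 in Th17 cells (limma adjusted p = 0.029), lost without any 1 of M22_1, M42_1, M42_5, and M43_5 (up to 0.080), and 0.76 ± 0.16 in iTreg cells (limma adjusted p = 0.013), kept without any single library. With the heading beginning as a term, Mxi1 had a limma adjusted p of 0.0073 in Th17 cells and 0.0058 in iTreg cells. Vegfa (chr17:46016993-46032369), the vascular growth factor, was at 6.56, 5.16, 6.32 and 6.54 FPKM in Th0, 8.69, 10.3, 8.99 and 7.18 FPKM in Th17, and 8.12, 7.64, 4.73 and 6.61 FPKM in iTreg libraries. Th17 libraries lay wholly above Th0 (0.45 ± 0.13, limma adjusted p = 0.038), but the call was lost without any 1 library except M43_5, that is without M22_1, M22_5, M29_1, M29_5, M42_1, M42_5, or M43_1 (up to 0.0998). With the heading beginning as a term, Vegfa had a limma adjusted p of 0.034 in Th17 cells. iTreg libraries overlapped Th0 (0.12 ± 0.16, limma adjusted p = 0.68).

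Bnip3l (chr14:66985239-67008877) and Bnip3 are receptors that mark mitochondria for autophagy. Bnip3l was at 46.9, 49.95, 55.3 and 59.1 FPKM in Th0 libraries of the iTreg table and 36.3, 45.4, 38.1 and 36.6 FPKM in iTreg libraries, not overlapping, with a log2 fold change of -0.42 ± 0.11 (limma adjusted p = 0.035), a call that was lost without any 1 of M22_4, M29_1, M42_1, M42_4, M43_1, and M43_4 (up to 0.099). With the heading beginning as a term, Bnip3l had a limma adjusted p of 0.015 in iTreg cells. In Th17 libraries it was at 48.04, 50.1, 51.9 and 47.1 FPKM (-0.11 ± 0.10, limma adjusted p = 0.52), and 14% of its 100-base windows recur in another annotated gene. Bnip3 varied widely within groups, from 11.4 to 39.0 FPKM within Th0 and from 12.9 to 45.9 FPKM within Th17 cells, and its log2 fold changes of -0.03 ± 0.46 and -0.61 ± 0.37 did not pass the test.

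The remaining targets were called in neither comparison without the heading term. Ddit4 (REDD1), an inhibitor of mTORC1, had the largest upward difference of them in iTreg cells, from 108 ± 28.4 to 148 ± 26.4 FPKM in the iTreg table (0.48 ± 0.21, limma adjusted p = 0.17 without and 0.020 with the term). P4ha1, a collagen prolyl hydroxylase subunit, was higher in Th17 cells within all 4 beginnings, from 17.7 ± 5.87 to 24.2 ± 10.04 FPKM (0.40 ± 0.30, limma adjusted p = 0.39 without and 0.023 with the term). Higd1a, a mitochondrial protein, was lower in iTreg cells within all 4 (-0.40 ± 0.21, limma adjusted p = 0.24 without and 0.019 with the term). The cytokine Mif and the endoplasmic reticulum oxidase Ero1l passed no test, with log2 fold changes of -0.49 ± 0.33 and -0.30 ± 0.30 for Mif and -0.09 ± 0.21 and 0.04 ± 0.24 for Ero1l. Other annotated genes share 28.2% of the 100-base windows of Mif, 24.6% of those of Bnip3, and 19.9% of those of Higd1a.

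**Figure D3:**
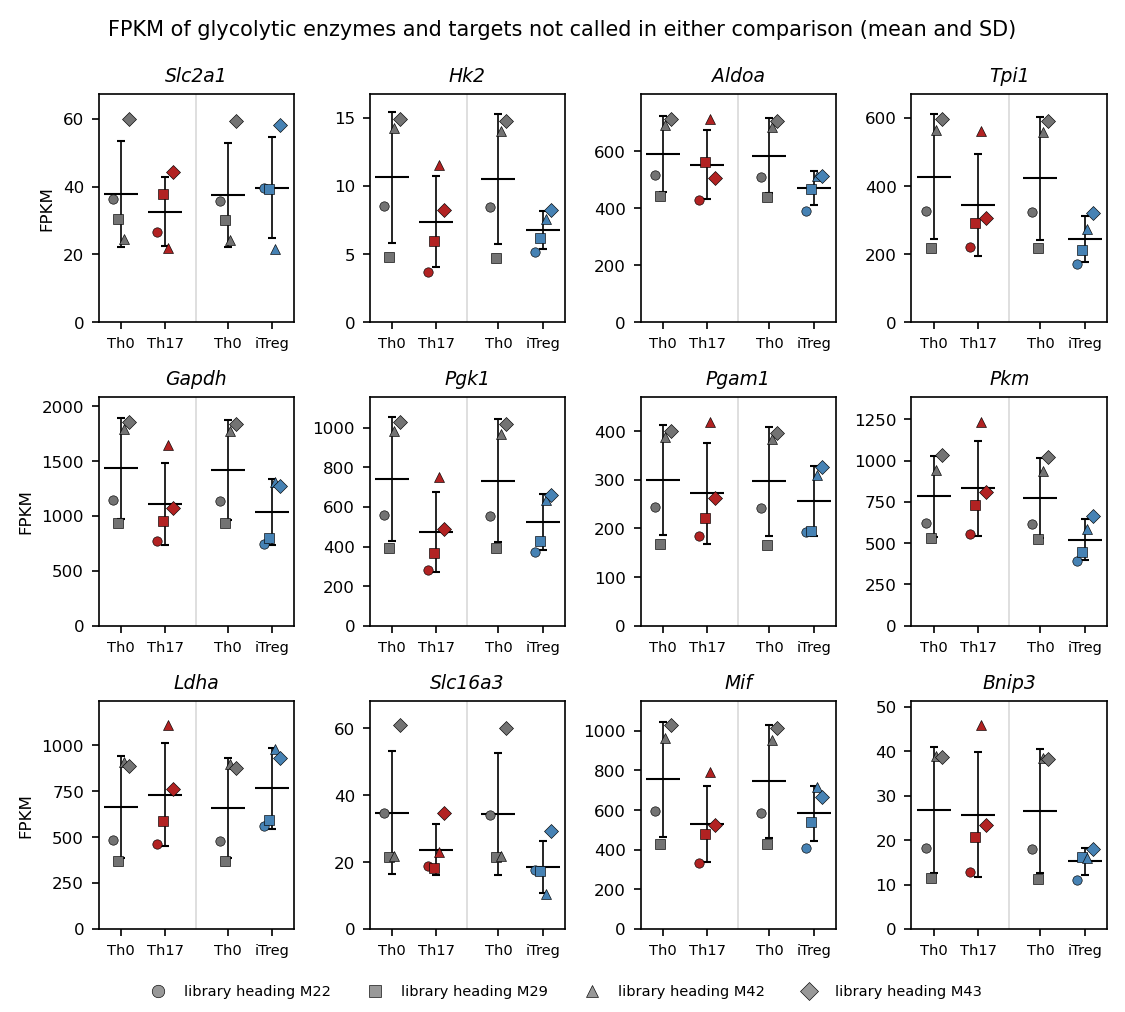
FPKM of 12 members called in neither comparison without the heading term, 1 point per library with the mean and SD of each group, Th0 (grey) shown once for each table, Th17 in red and iTreg in blue, and the point's shape giving the beginning of the library's heading. In Th0 cells the M42 and M43 libraries lie above the M22 and M29 libraries for most enzymes. Gapdh, for example, is at 1149, 940.4, 1793 and 1857 FPKM in M22, M29, M42, and M43. That spread is larger than the distance between its group means.

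The members varied together between libraries of 1 group. The Th0 libraries M42_1 and M43_1 were the highest 2 of 4 for 22 of the 35 members (62.9%), among them Hif1a, Egln3, Gapdh, Pgk1, Pkm, and Ldha, and for 29.1% of all genes tested, a pattern chosen after the values were seen. The M42 and M43 libraries were the highest 2 for 15 members in Th17 cells (42.9%, beside 24.6% of genes) and for 18 members in iTreg cells (51.4%, beside 30.3% of genes). Within a group, the highest library exceeded the lowest by a median of 1.77 times over the members in Th0, 1.88 times in Th17, and 1.67 times in iTreg cells, beside 1.42, 1.46, and 1.40 times over all genes. The summed FPKM of the members made up 0.845% to 1.68% of a Th0 library, 0.894% to 1.46% of a Th17 library, and 0.792% to 1.17% of an iTreg library. Depth read from the low values, as a share of a table's median, was 0.843, 0.884, 1.04 and 1.05 in Th0 libraries. It was 0.918, 1.08, 0.987 and 1.01 in Th17 libraries and 1.19, 1.08, 0.981 and 0.974 in iTreg libraries. The M42 and M43 libraries were thus the deeper ones in Th0 cells and the shallower ones in iTreg cells. Except for M22_1, to which the ratios refer, each depth rests on 13 to 54 low genes. The part of depth in this pattern was not tested.

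Ratios of 2 isoforms within a library do not depend on scaling and could be compared across all 3 groups. Slc2a1 to Slc2a3 was 3.43, 3.63, 2.35 and 2.58 in Th0, 3.84, 7.04, 3.80 and 5.19 in Th17, and 9.48, 6.70, 5.94 and 7.38 in iTreg libraries, on average 3.0, 4.97, and 7.38. All polarized libraries lay above the Th0 libraries, with p = 0.029 in a two-sided exact permutation test for either group against Th0 and 0.086 between Th17 and iTreg. Ldha to Ldhb was 12.3, 8.94, 16.4 and 21.4 in Th0, 16.6, 22.2, 27.6 and 31.2 in Th17, and 25.3, 25.1, 30.3 and 33.2 in iTreg libraries, higher in every iTreg than in every Th0 library (exact permutation p = 0.029) and overlapping in Th17 cells (exact permutation p = 0.057), although higher in Th17 than in Th0 cells within all 4 heading beginnings. An exact sign-flip permutation test over the 4 pairs gave p = 0.125, the smallest it can give. Pfkp to Pfkm averaged 10.3 in Th0, 13.4 in Th17, and 17.5 in iTreg cells (exact permutation p = 0.086 and 0.029 against Th0). Aldoa to Aldoc averaged 125 in Th0, 111 in Th17, and 181 in iTreg cells, and separated Th17 from iTreg libraries (exact permutation p = 0.029), while neither group was separated from Th0 (0.46 and 0.086). Hk1 to Hk2 averaged 5.56, 6.87, and 5.76 with overlapping groups. Of the 15 exact permutation tests without pairing, with isoform pairs chosen after values were seen, none passed after Benjamini-Hochberg adjustment (smallest adjusted p = 0.086). Without pairing, 0.029 is the smallest p that 4 against 4 libraries can give.

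**Figure D4:**
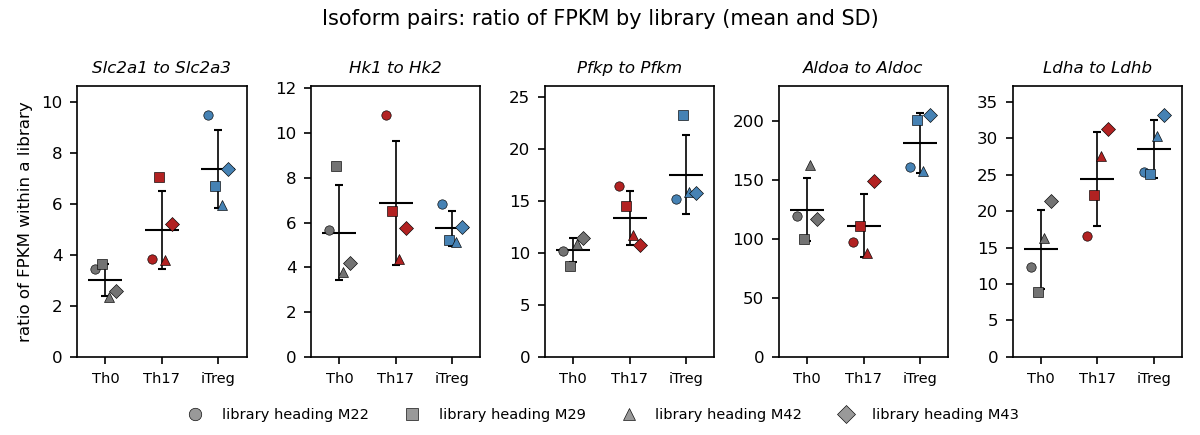
Ratio of FPKM between isoforms of the same step in each library, with the mean and SD of Th0 (grey), Th17 (red), and iTreg cells (blue), and the point's shape giving the beginning of the library's heading. The ratios of Slc2a1 to Slc2a3 and of Ldha to Ldhb lie higher in iTreg than in Th0 libraries without overlap, at means of 7.38 against 3.0 and 28.5 against 14.8.

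Neighbouring pathways of the members were counted in the same fits, from lists drawn from knowledge of the pathways, and are to be read beside the share of all genes tested, 10.6% called higher and 8.69% lower in Th17 cells and 8.36% and 8.21% in iTreg cells. Of 15 other glycolysis enzymes and regulators, 1 was called higher in Th17 cells, the phosphoglucomutase Pgm1 (0.44 ± 0.11), and in iTreg cells 1 was called higher, the ADP-dependent glucokinase Adpgk (1.08 ± 0.23), and 2 lower, Pgm2 (-0.89 ± 0.15) and Bpgm (-0.89 ± 0.18), all as log2 fold change ± SE. Of 11 genes of pyruvate entry into mitochondria none was called in Th17 cells, and in iTreg cells Pdha1, a subunit of pyruvate dehydrogenase, was called higher (0.61 ± 0.14) and its activating phosphatase Pdp1 lower (-0.33 ± 0.10). Of 9 pentose phosphate genes 1 was called in each comparison, Rpia lower in Th17 cells (-0.47 ± 0.13) and Prps1, which makes the ribose donor of nucleotides, higher in iTreg cells (1.85 ± 0.18). None of 11 tested HIF pathway components, the partner Arnt and the ligase subunit Vhl among them, was called in either comparison. With the heading beginning as a term, where 19.2% and 18.6% of all genes were called higher and lower in Th17 cells and 20.9% and 20% in iTreg cells, Vhl was called lower in both comparisons and Hif1an and Ep300 in iTreg cells. The glycolysis list then held 3 higher and 2 lower in each comparison, the pyruvate list 1 and 1 in Th17 and 2 and 2 in iTreg cells, and the pentose phosphate list 1 and 2 in Th17 and 2 and 0 in iTreg cells.

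Of 19 other HIF-1 targets, 3 were called higher and 3 lower in Th17 cells, beside 10.6% and 8.69% of all genes. The higher were the chemokine receptor Cxcr4 (1.82 ± 0.37), the collagen lysyl hydroxylase Plod2 (1.52 ± 0.42), and the haem oxygenase Hmox1 (1.22 ± 0.17), and the lower were Angptl4 (-1.90 ± 0.26), Stc2 (-1.61 ± 0.25), and the glycogen branching enzyme Gbe1 (-0.76 ± 0.19). In iTreg cells 1 was called higher, Plod2 (2.56 ± 0.42), and 5 lower, beside 8.36% and 8.21% of all genes, among the lower the adenylate kinase Ak4 (-1.42 ± 0.40), Stc2 (-1.34 ± 0.31), and Ankrd37 (-0.78 ± 0.23). With the heading beginning as a term, 6 were called higher and 6 lower in Th17 cells, beside 19.2% and 18.6% of all genes. In iTreg cells 5 were then called higher and 8 lower, beside 20.9% and 20% of all genes. Of 13 MYC, mTOR, and MondoA genes that act on glycolysis, Rptor and Prkaa1 were called higher in Th17 cells (0.43 ± 0.10 and 0.52 ± 0.10), and Myc and Prkaa1 in iTreg cells (1.05 ± 0.18 and 0.35 ± 0.09). With the heading beginning as a term, 2 of the 13 were called higher and 1 lower in Th17 cells, beside 19.2% and 18.6% of all genes. In iTreg cells 3 were then called higher and 4 lower, beside 20.9% and 20% of all genes. Myc encodes a transcription factor that raises many genes of glycolysis.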

How the data were processed

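RNA-seq of 12 libraries, 4 each of Th0, Th17, and iTreg cells grouped by the sample labels, was analysed. The authors aligned reads with TopHat2 2.0.14 to mm10, counted exonic reads with HTSeq-count without strand, left out genes of low CPM, and deposited 2 tables of FPKM values. How FPKM was computed and the annotation are not given in the sources used here. Columns of the authors' own edgeR comparison (fold changes, average CPM, likelihood ratios, p-values, and FDR) were not used.

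Since FPKM is not a count, log2(FPKM + 1) was tested with limma 3.58.1 in R 4.3.3, in genes above 1 FPKM in 4 or more of 8 libraries, with Benjamini-Hochberg adjustment over each whole table. The scale understates changes of low genes. P-values measure the spread between these cultures. Permutation tests and tallies used Python 3.11.15, scipy 1.17.1, numpy 2.4.6, and pandas 2.3.3. On simulated data, changes were planted in a small random part of the genes tested, 10269 in the Th17 and 10208 in the iTreg comparison. The test found 83% of the planted 2-fold and 95% of the planted 4-fold changes in the Th17 comparison. Of the genes it called there, 4.30% were unchanged. In the iTreg comparison it found 78% and 92%, and 6.08% of the genes called were unchanged. The simulated libraries were drawn independently, without pairing. Recovery for the members alone was not tested. The median SE of the members was 0.24 in the Th17 comparison, beside 0.15 over all genes. In the iTreg comparison it was 0.21, beside 0.14.

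The study's own RNA-seq tests had a pair-wise design. Deviations from the group means, over all genes tested, correlated at 0.45 to 0.78 (Th17 with Th0) and 0.66 to 0.77 (iTreg with Th0) between libraries of the same heading beginning and at -0.59 to 0.43 and -0.58 to 0.25 between others, so the beginnings pair the libraries. The unpaired fit, set as the main one from the labels, was retained, with the paired fit beside it.

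Total counts are unknown, so no counting intervals were calculated. Relative depth, read from whole-number ratios of low FPKM values, was 0.825 to 1.19 of a table's median. Gene spans, exonic overlaps, and shared windows come from GENCODE vM21 on GRCm38. One marker gene of the lists is not reported here, and the counts and sums leave it out. Members, lists, isoform pairs, and tests were chosen with earlier results of these data known. Values of every library were given for members called and for the best known members, and group means or ranges for the others. Alternatives were other pseudocounts, filters, variance models, scalings, thresholds, single libraries left out, and the heading term. The fits that left out a library were made without the heading term.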

Additional observations from a re-analysis of the deposited data

Results flagged for a closer look

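Over 120 groups of 4 libraries (35 members and 5 isoform ratios in 3 groups), 7 held a library whose gap to the nearest other library exceeded Dixon's 95% critical value as a share of the group's range, and chance gives about 1 in 20 such groups. In Th0 cells these were Slc2a3 in M43_1 (23.2 FPKM, the next at 10.6), Aldoc in M43_1 (6.10 FPKM, the next at 4.41), Eno2 in M22_1 (27.7 FPKM, the next at 12.6), Ldhb in M42_1 (55.5 FPKM, the next at 41.5), and Vegfa in M29_1, which was low (5.16 FPKM, the next at 6.32). In iTreg cells they were Eno3 in M42_4 (34.4 FPKM, the next at 22.1) and the ratio of Pfkp to Pfkm in M29_4 (23.3, the next at 15.9). Hif1a stood out because all its Th17 libraries were above and all its iTreg libraries below Th0, with log2 fold changes of 0.90 and -0.55, and the difference between these fold changes was not tested.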

How the results depend on the processing

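The experiment number of the sample titles is not in the column headings and could not serve as a block. The heading beginnings, used as a replicate block that pairs the libraries and chosen after the data had been seen, moved the called genes from 1983 to 3882 in the Th17 comparison and from 1691 to 4170 in the iTreg comparison, and the called members from 5 to 11 and from 10 to 21. With library weights the called genes of the Th17 comparison came to 3144 and the called members to 9 and, in iTreg cells, 16. At an adjusted p below 0.01, 995 and 778 genes and 2 and 2 members were called. Leaving out single libraries gave 1364 to 2237 and 1140 to 1521 called genes and 3 to 5 and 5 to 10 called members. Across all 17 settings tried in each comparison Egln3 kept its call in both comparisons, Eno3 in Th17 cells, and Pfkm in iTreg cells, and no called member changed sign.

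The members that changed sign passed the test of that comparison in no setting, and the cause was not tested. With library weights, log2 fold changes turned to -0.060 for Aldoc, -0.20 for Pkm, -0.19 for Ldha, and -0.14 for Ddit4 in Th17 cells and to -0.056 for Slc2a1, 0.040 for Eno2, -0.024 for Ldha, and -0.038 for Ero1l in iTreg cells, and with quantile normalization to 0.019 for Aldoa in Th17 cells. When single libraries were left out, log2 fold changes in Th17 cells ranged for Slc2a1 from -0.36 to 0.063, Pfkl from -0.26 to 0.051, Pfkp from -0.060 to 0.14, Aldoa from -0.22 to 0.019, Aldoc from -0.13 to 0.22, Pgam1 from -0.38 to 0.041, Pkm from -0.13 to 0.25, Ldha from -0.080 to 0.36, Slc16a1 from -0.33 to 0.19, Bnip3 from -0.36 to 0.24, Ero1l from -0.19 to 0.062, and Ddit4 from -0.097 to 0.21. In iTreg cells they ranged for Slc2a1 from -0.13 to 0.33, Eno2 from -0.39 to 0.15, Eno3 from -0.087 to 0.15, Slc16a1 from -0.14 to 0.41, and Ero1l from -0.092 to 0.24, and the log2 difference of the ratio of Hk1 to Hk2 from -0.043 to 0.34. Depth limits members under about 5 FPKM, such as Mxi1 and Aldoc, most, and their counting error is unknown. Effects shared by libraries of 1 heading beginning count as spread in the comparisons without the term.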
